A study of Mus musculus with 15 samples.

Results

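The sites described here are the places in the mouse genome where the transcription factor Miz1 gave a ChIP-seq peak both in fibroblasts and in splenic B cells. Members are the fibroblast Miz1 peaks that overlap a B cell Miz1 peak by at least 1 bp, without those whose sequence within 50 bp of the summit holds 4 or more consecutive GA (or TC) dinucleotides. Of 8310 fibroblast peaks, 891 (10.7%) overlapped a B cell peak, which is 892 of the 4488 B cell peaks (19.9%). The GA condition left out 153 of them (17.2%) and another 2 had no reference sequence, so 736 sites remained, over 738 B cell peaks. The sites were thus chosen by measured values, the peak calls and peak positions of both Miz1 lists, and their strength in either list is given as a description only.

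The series followed Myc and RNA polymerase II (RNAPII) on chromatin after Myc activation in 3T9-MycER fibroblasts, a line made from E13.5 mouse embryos. These cells carry floxed c-myc alleles (c-myc flox/flox) and, by retroviral infection in culture, MycER, a Myc protein fused to an estrogen receptor domain that is activated by 4-hydroxytamoxifen (OHT, 400 nM). Myc (antibody N262) and RNAPII (N20) were measured at 0, 10, 20 and 30 min and at 2 and 4 h of OHT, Miz1 (antibody 10E2) in the fibroblasts without activation, and Miz1 in B cells enriched on B220 beads from the spleens of wild-type C57BL/6 mice aged 6 to 8 weeks. Each of these groups is 1 library, so no comparison between them has a replicate and no p-value is given; intervals are 95% intervals of a share (Wilson) or of a difference between shares (Newcombe) and cover counting error only. The Miz1 libraries held 10164509 tags in fibroblasts and 24237295 in B cells, with peaks called at p cutoffs of 1e-02 and 1e-05; the Myc libraries held 28132063 to 33431447 tags and the RNAPII libraries 15276996 to 36396286. RNAPII at 0 min lay at the promoters of 8 of 10 fibroblast marker genes, 1 of 10 B cell markers (Ebf1) and 2 of 10 T and myeloid cell markers (Cd14 and Lck). For the B cells only the Miz1 list could be looked at. It had a peak at 1 of the 10 B cell marker promoters (Cd79a) and at 1 of the 10 T and myeloid ones (Lck). The markers in that list thus do not tell B cells from T and myeloid cells. A peak in ChIP from many cells cannot tell a higher fraction of bound cells from a higher occupancy in each.

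Miz1, encoded by Zbtb17, is a transcription factor with an N-terminal POZ domain and a row of zinc fingers that binds DNA near transcription start sites. It can activate genes by itself and, when it is joined by Myc, is known to repress targets such as the cyclin-dependent kinase inhibitors Cdkn1a and Cdkn2b. In other work Miz1 targets have included genes of vesicle transport and autophagy, among them Vamp4, Ambra1, Exoc2 and Vps28, and the ribosomal protein gene Rpl22.

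The sequences under the strongest promoter sites are shown first, because the short words TCGA and GCCGA recur in them near the summit. Sites were ranked by the sum of their ranks by fold enrichment in the fibroblast and the B cell list, and the lowest sum is called the strongest site. Each run below is the plus strand of mm9, 5′ to 3′, with TCGA, and GCCGA or its reverse complement TCGGC, in capitals. Runs of 80 bases are centred on the summit. Where those bases touch an annotated exon, the run is instead the 30 bases within 100 bp of the summit with the most copies of these words. Such runs were chosen for holding the words. Some do not cover the summit, such as those of Rpl22 (35 to 64 bp from it) and Gne (-66 to -37 bp). All of the first 12 sites lie within 200 bp of a transcription start site (TSS).
Tmbim4, chr10:119645761-119645790: TCGActggtTCGGCgctcgctgcagagagg
Pex14, chr4:148473993-148474022: gaccaaagtagaaggtcccgagcatgTCGA
Vps13d, chr4:144784941-144785020: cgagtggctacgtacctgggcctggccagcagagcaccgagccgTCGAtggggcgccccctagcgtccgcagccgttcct
Snrpb2, chr2:142888727-142888756: tgcTCGActctTCGActtctctgagtTCGA
Rpl22, chr4:151699870-151699899: aagggcgaTCGAgaagcaagggctgaTCGA
Hdgf, chr3:87710080-87710159: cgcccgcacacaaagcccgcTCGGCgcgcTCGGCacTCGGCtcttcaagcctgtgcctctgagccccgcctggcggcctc
Taok3, chr5:117569984-117570063: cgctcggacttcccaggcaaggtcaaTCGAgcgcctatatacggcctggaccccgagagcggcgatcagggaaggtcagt
Psma1, chr7:121419631-121419660: gtgcaatctatcccagagccacggaTCGGC
S100pbp and Yars, chr4:128867050-128867079: TCGAttcttTCGActctctgctgctcctga
Cox19, chr5:139821165-139821194: agcgggtccaggaagcgTCGAgctagTCGA
Gne, chr4:44085541-44085570: TCGAcgacTCGGCgcTCGAcccagccccag
5730419I09Rik, chr6:143048694-143048773: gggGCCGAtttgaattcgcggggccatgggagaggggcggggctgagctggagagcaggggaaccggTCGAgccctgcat

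The next set holds the strongest promoter sites with the longer palindrome ATCGAT outside those 12, here at the DNA repair helicase gene Ercc2, the cobalamin trafficking gene Mmadhc, the mRNA decapping gene Dcp1b and Jmjd5. For Ercc2 and Jmjd5 the run is the 30 bases around ATCGAT.
Ercc2, chr7:19967148-19967177: gcaatgaactctaTCGAttctcTCGActct
Mmadhc, chr2:50152277-50152306: agcccaTCGAtgccgtcggTCGAtctTCGA
Dcp1b, chr6:119125155-119125234: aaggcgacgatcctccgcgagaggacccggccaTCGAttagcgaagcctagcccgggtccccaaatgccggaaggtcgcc
Jmjd5, chr7:132588130-132588159: gcggggcctggcaTCGAttgctccgcgttc

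The last set gives 3 genes known as Miz1 targets, of which Ambra1 and Vps28 carry the pair TCGGCNNTCGGC, and the strongest distal site, upstream of Vav2. That site does not stand for the distal sites. The 80 bases around the summits of the next strongest ones, near Sos1, Zfp362 and Serpina4-ps1, held none of the words in capitals.
Vamp4, chr1:164500620-164500649: GCCGAgacgcTCGAtctccgttgcctgagc
Ambra1, chr2:91570239-91570268: agcaatgttTCGGCacTCGGCtgcagtgcc
Vps28, chr15:76456548-76456577: ccaaatccattgaTCGGCacTCGGCttttt
Vav2, chr2:27297925-27298004: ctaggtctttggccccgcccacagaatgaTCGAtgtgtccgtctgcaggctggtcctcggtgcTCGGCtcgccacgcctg

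Peak strength among the 736 sites covered a wide range in both cell types. Fold enrichment, the authors' value of each peak over its local control background, ran from 1.62 through a median of 11.2 to 293 in the fibroblast list and from 1.70 through 15.0 to 148 in the B cell list. The summits of the overlapping peaks lay a median of 31.5 bp apart and within 100 bp of each other at 626 sites (85.1%). All of the 100 strongest fibroblast peaks without a GA run were shared, and so were 94 of the 98 such peaks among the 100 strongest of the B cell list (95.9%), against 99 of 3604 (2.75%) in the weaker part of the fibroblast list. The 6692 fibroblast-only peaks without GA runs had a median fold of 5.78, and the 2827 such B cell-only peaks one of 8.07. At the edge of the rule, the smallest overlap was 5 bp (folds of 5.21 in fibroblasts and 18.6 in B cells) and the next 11 bp, while the nearest fibroblast peak outside lay 5 bp from a B cell peak, with a fold of 8.19. Of the members, 59 had a run of 3 GA dinucleotides, and 8 of the peaks left out had a run of exactly 4. The fibroblast list was called at a looser p cutoff than the B cell list, and 109 members would not have passed the B cell cutoff.

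**Figure D1:**
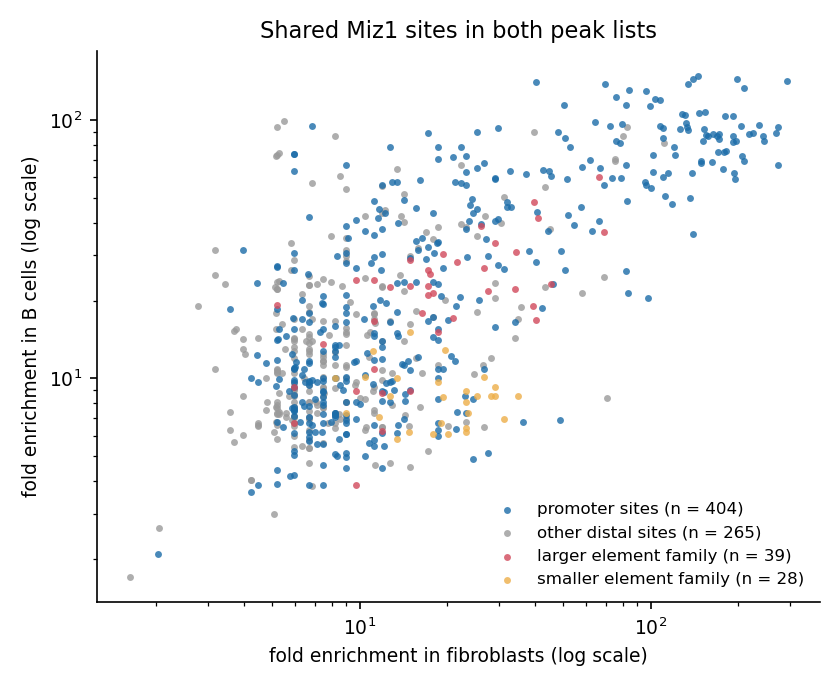
Fold enrichment of each shared site in the fibroblast list (x axis) and the B cell list (y axis), both on log scales. Each point is 1 site. Promoter sites, distal sites and the 2 largest families linked by shared runs of bases (element families) are in separate colours. Promoter sites fill the upper right, where the highest folds are 293 in fibroblasts and 148 in B cells.

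Shared sites lay at promoters more often than Miz1 peaks of either cell type alone. The summit was within 1000 bp of an annotated TSS at 404 sites (54.9%, interval 51.3 to 58.5%). The share was 20.6% for fibroblast-only peaks, a difference of 34.3 percentage points (30.6 to 38.0), and 24.5% for B cell-only peaks, a difference of 30.4 points (26.5 to 34.3). The fibroblast-only peaks that pass the B cell p cutoff had 27.6%, a difference of 27.3 points (23.3 to 31.2), and the 627 members that pass it had 58.4%. Within 200 bp of a TSS the shares were 38.7% of shared sites, 9.03% of fibroblast-only peaks and 12.5% of B cell-only peaks. At promoters the median summit was at -58.5 bp from the TSS (negative is upstream), and 213 of the 404 summits (52.7%) were within 200 bp upstream, against 72 within 200 bp downstream. Of the promoter sites, 376 were at protein-coding genes. Of those, 53 (14.1%) had protein-coding TSSs on both strands within 1000 bp of the summit, such as those of S100pbp and Yars. Among all 45975 annotated protein-coding TSSs, 10.4% had one on the other strand within 1000 bp. The remaining 332 sites were distal: 135 were 1 to 10 kb from the nearest TSS and 197 farther, 31 of them over 100 kb, and their summits fell between transcripts at 205 sites and in introns at 122.

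**Figure D2:**
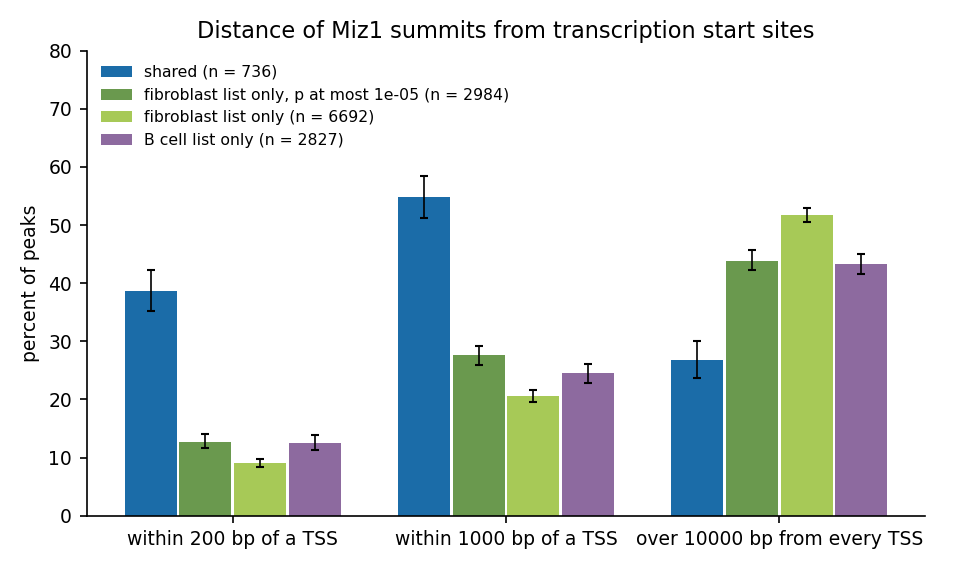
Percent of Miz1 peaks (y axis) whose summit lies within 200 bp of a TSS, within 1000 bp of one or over 10000 bp from every TSS (x axis), for shared sites, fibroblast-only peaks (all and those passing the B cell cutoff) and B cell-only peaks, with 95% Wilson intervals as bars. Shared sites have the tallest bars near the TSS (38.7 and 54.9%) and the lowest over 10000 bp away (26.8%).

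The strongest shared sites were at promoters: the 50 lowest rank sums were all promoter sites, as were 93 of the lowest 100 and 159 of the lowest 200. Promoter sites had a median fold of 14.1 in fibroblasts and 20.7 in B cells, and distal sites had 8.94 and 12. The strongest site of all was at -31 bp from the TSS of Tmbim4, which encodes a Golgi membrane protein that protects from apoptosis, with a fold of 293 in fibroblasts and 142 in B cells. Pex14, the docking protein for import into peroxisomes, had 198 and 143. The site of Vps13d, a large lipid transfer protein, had 209 and 133. Snrpb2, a protein of the U2 splicing particle, had 236 in fibroblasts and 95.7 in B cells, and Rpl22, of the large ribosomal subunit, 274 and 94.0. These sites were stronger by fold in fibroblasts, but folds from lists with different controls and depths do not measure a difference in binding. Hdgf, a secreted growth factor that also binds chromatin, had 145 and 148, and the kinase gene Taok3 140 and 144. The proteasome core subunit gene Psma1 had 191 and 104. The site shared by the divergent genes S100pbp and Yars, with its summit in the 5′ UTR of Yars, the tyrosyl-tRNA synthetase gene, had 205 and 94.5. Cox19, which serves cytochrome c oxidase assembly, had 179 and 103, and Gne, which starts sialic acid synthesis, 134 and 137. The twelfth, 5730419I09Rik, had 153 and 108.

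Near the summits of the strongest promoter sites the palindrome TCGA was frequent. The words TCGA, GCCGA and TCGGCNNTCGGC, and the group of the 100 strongest promoter sites, were chosen after the sequences had been looked at, so the counts below describe these sites. Words were searched on both strands in the 200 bp around the summit. TCGA occurred in 213 of the 736 windows (28.9%, 25.8 to 32.3%), against 16.4% of equally long windows 1000 bp to either side. It was in 73.0% of the 100 strongest promoter sites (63.6 to 80.7%), with 38 holding 2 or more copies, and in 26.6% of the other 304 promoter sites (22.0 to 31.9%). Across all 45962 protein-coding promoters with sequence, windows of 200 bp centred at -58 bp from the TSS, where the promoter summits lie, held TCGA in 16.8%, and the 22142 of them with RNAPII at 0 min in 20.6%. Promoters with a fibroblast-only peak had 17.7% and those with a B cell-only peak 21.1%. In 4 equal groups of the shared promoter sites, from the strongest to the weakest, the share was 72.3, 37.6, 18.8 and 23.8%. The share was thus highest in the strongest group, lower in the next, and near the RNAPII promoter background in the others.

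Shared sites as a whole were richer in CG than the windows to either side, with a mean of 10.0 CG dinucleotides against 4.28, and per 100 CG they held 3.98 copies of TCGA against 4.24, so over all sites there was no excess per CG. The 100 strongest promoter windows held a mean of 17.4 CG and RNAPII promoters 16.5, close to each other, while the copies of TCGA per 100 CG were 7.36 and 1.44. The other promoter sites had 2.30 copies per 100 CG. Other CG-containing palindromes were not raised in this way: ACGT was in 23.0% of the strongest sites and 31.8% of RNAPII promoters, CCGG in 74.0 and 77.1%, and GCGC in 86.0 and 73.6%. Copies of TCGA also lay close to the summit. In the 100 strongest sites, 71 of the 247 copies within 500 bp were within 25 bp of it and 101 (40.9%) within 50 bp. Per 100 sites and 25 bp, there were 35.5 copies at the centre and 3.38 at 200 to 500 bp, a 10.5-fold ratio, which was 1.31 in the other promoter sites and 2.73 in distal sites outside the repeat families described later.

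**Figure D3:**
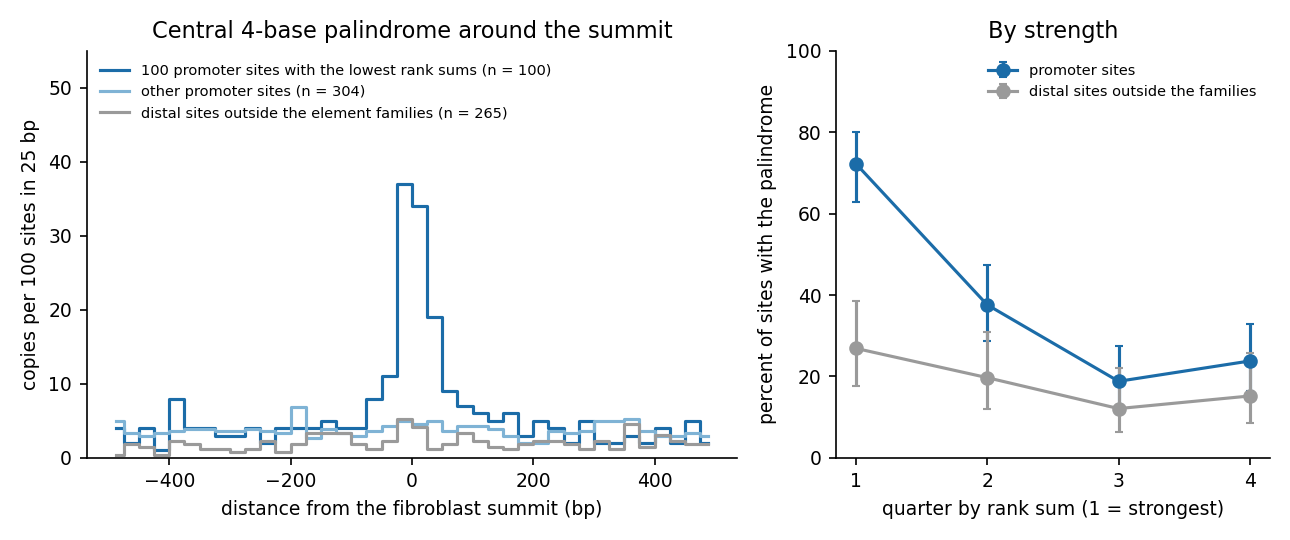
Left, copies of TCGA per 100 sites in each 25 bp (y axis) by distance from the Miz1 summit in bp (x axis) for the 100 strongest promoter sites, the other promoter sites and the distal sites; right, percent of sites with TCGA (y axis, 95% Wilson intervals) in 4 equal groups from the strongest to the weakest (x axis). The strongest sites peak at the summit, with a mean of 35.5 copies per 100 sites in the 25 bp to either side, and the strongest group of promoter sites has TCGA at 72.3%.

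Longer words around TCGA showed the same preference for the strongest sites. ATCGAT, which contains TCGA, was in 42 of 736 windows (5.71%, 4.25 to 7.62%), in 0.408% of the windows to either side and in 0.658% of fibroblast-only peaks. Per 100 CG, shared sites held 0.595 copies of it and the windows to either side 0.0953. All protein-coding promoters held it in 0.542% and B cell-only peaks in 1.56%. It reached 16% in the 100 strongest promoter sites (10.1 to 24.4%). Distal sites outside the families had 5.28% (3.17 to 8.67%), so this word was not limited to promoters, and their strongest group of 4 had 11.9%. GCCGA, the word in the Hdgf, Ambra1 and Vps28 runs above, was in 60 of the 100 strongest promoter sites (50.2 to 69.1%), 31.9% of the other promoter sites and 36.3% of RNAPII promoters. In the same 4 groups from the strongest to the weakest promoter sites its share was 60.4, 41.6, 27.7 and 25.7%. The pair TCGGCNNTCGGC, which contains the reverse complement of GCCGA at either end, was in 7 of the 100 strongest promoter sites. They included Hdgf, the site shared by the mitotic kinase gene Aurka and Cstf1, Ambra1, Vps28, the site shared by the adaptor gene Ap4b1 and Dclre1b, and 2610101N10Rik. It was in 0 of the other 304 promoter sites (upper bound 1.25%), in 1 distal site, near Suox, in 0 of the 1472 windows to either side and in 0.122% of all protein-coding promoters. The E-box CACGTG, the word bound by Myc with Max, was in 7.00% of the 100 strongest sites and 7.70% of RNAPII promoters. At promoter sites with a Myc peak at 0 min it was in 25 of 363 (6.89%), and at those without in 0 of 41 (upper bound 8.57%). A match of letters is a description and not a binding site.

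Some distal sites shared runs of identical bases with other distal sites. Likeness over the whole window was not measured, and a member need not share a run with every other member. A first family of 39 sites on 16 chromosomes, linked by shared runs of bases, had no promoter member and lay between transcripts at 36 sites, a median of 30557 bp from a TSS. Its folds were 5.21 to 69.3 in fibroblasts (median 17.1) and 3.86 to 60.1 in B cells (median 22.1). Its commonest run of 20 bases, held by 20 members, occurs 49 times in mm9, and 25 of those copies were in a fibroblast peak, 25 in a B cell peak and 22 in both. A second family of 28 sites on 13 chromosomes had folds of 8.19 to 35.0 in fibroblasts (median 19.5) and 5.82 to 15.1 in B cells (median 8.53). Its commonest run occurs 164 times in the genome, with 90 copies (54.9%) in a fibroblast peak and 18 (11%) in a B cell peak. Beyond the shared sites, 60 fibroblast-only windows and 0 of 2827 B cell-only windows (upper bound 0.136%) held that run. Both families together are 67 of the 332 distal sites, and the smaller families had 5 and 4 members. How reads with several positions in the genome were placed is not given in the sources used here, and its part in these peaks was not tested.

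The 6 strongest distal sites were of several kinds. The site at -15411 bp from the TSS of Vav2, a guanine nucleotide exchange factor, had folds of 83.1 in fibroblasts and 94.2 in B cells, with Myc and RNAPII peaks at all 6 times. The same was true of the site at -2668 bp from Sos1, the Ras exchange factor, with folds of 111 and 81.7. The sites at -5511 bp from Zfp362 (80.3 and 86.5) and -1040 bp from Mll2, a histone methyltransferase gene (39.7 and 89.6), also carried both factors at every time. The sites nearest to Serpina4-ps1 (75.2 and 70.6), at -12997 bp, and to 1700018B08Rik (75.2 and 69.4), at 105130 bp, had neither factor at any time.

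Myc and RNAPII were found at most shared sites before MycER was activated. At 0 min a Myc peak overlapped 438 of 736 sites (59.5%, 55.9 to 63.0%), where all 8310 fibroblast Miz1 peaks gave 42.1% and fibroblast-only peaks 40.5%, a difference of 19 points from the latter (15.3 to 22.7). Against the 2984 fibroblast-only peaks that pass the B cell cutoff, 57.1% of which had Myc, the difference was 2.37 points (-1.62 to 6.29). With the cutoff on both sides it was 64.0% of 627 shared sites against 57.1%, or 6.82 points (2.60 to 10.9), so the size of the Myc difference depends on the cutoff. At 10, 20 and 30 min Myc was at 62.2, 63.2 and 61.5% of shared sites, with 46.0, 47.5 and 44.5% of all Miz1 peaks. At 2 and 4 h it was at 64.4 and 61.8%, with 48.6 and 45.8% of all Miz1 peaks. The shares of shared sites stayed within 5 points of each other, and their intervals overlapped. RNAPII was at 444 sites at 0 min (60.3%, 56.7 to 63.8%), against 35.5% of all Miz1 peaks and 33.7% of fibroblast-only peaks, a difference of 26.6 points (22.9 to 30.3). Against the fibroblast-only peaks that pass the cutoff (46.4%) the difference was 13.9 points (9.94 to 17.8), and with the cutoff on both sides 17.9 points (13.7 to 22.0). At 10, 20 and 30 min it was at 60.9, 61.0 and 59.8% of the shared sites, with 36.6, 38.2 and 34.9% of all Miz1 peaks. At 2 and 4 h it was at 59.9 and 59.2%, with 33.7 and 32.3%.

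Myc was at 432 sites at all 6 times and at 260 at none, which leaves 44 with Myc at some of the times. Of these, 38 had Myc at a later time and not at 0 min, and 14 had it at all 5 later times. RNAPII was at all 6 times at 412 sites. At 0 min, 412 sites had both factors, 26 Myc alone, 32 RNAPII alone and 266 neither. These counts are not set beside those of other Miz1 peaks, so they do not show a trait particular to shared sites. The Myc peaks over shared sites had a median fold of 16 at 0 min, where the whole Myc list had 9.83, and the RNAPII peaks 32.7, where their list had 12.5. At promoters the medians of shared and fibroblast-only peaks were close, 16.4 and 14.2 for Myc and 32.8 and 31.1 for RNAPII. At distal sites they were 13.7 and 10.4 for Myc and 29.1 and 16.5 for RNAPII. The Myc summit was a median of 154 bp from the Miz1 summit at 0 min, and 91.5 bp at the 100 strongest promoter sites.

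**Figure D4:**
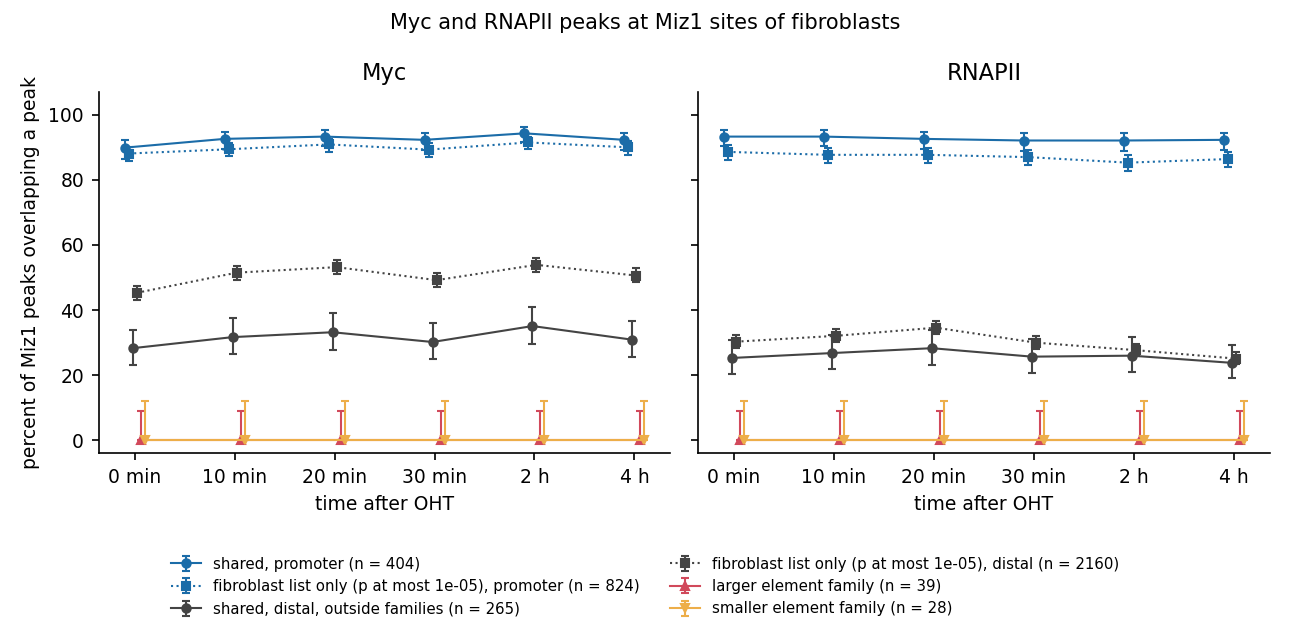
Percent of Miz1 sites that overlap a Myc peak or an RNAPII peak (y axis) at 6 times of OHT (x axis), for shared sites and for fibroblast-only peaks passing the B cell cutoff, promoter and distal (shared distal sites without the element families), with 95% Wilson intervals as bars. Each promoter series lies between 85.3 and 94.3% at every time, shared distal sites lie below fibroblast-only distal peaks for Myc, and both element families are at 0.

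Promoter and distal sites differed from fibroblast-only peaks in their own ways. At shared promoters Myc was at 89.9% of sites at 0 min and 92.3% at 4 h. Fibroblast-only promoter peaks that pass the B cell cutoff had 88.1% at 0 min and 742 of 824 at 4 h, and the interval of the difference held 0 at both times (-2.16 to 5.26 points at 0 min). With the cutoff on both sides Myc was at 91.3% of 366 shared promoters at 0 min, 3.15 points higher (-0.760 to 6.59), and at 4 h the difference was 3.94 points (0.476 to 6.94). RNAPII was at 93.3% of shared promoters at 0 min and 88.6% of those fibroblast-only promoters, 4.72 points apart (1.23 to 7.84). The higher shares of all shared sites thus stand beside their larger share of promoters. Shared distal sites outside both large families had Myc at 28.3% (23.2 to 34.0%) at 0 min, where fibroblast-only distal peaks that pass the cutoff had 45.3%, so the shared minus fibroblast-only difference was -17 points (-22.5 to -10.9). At 4 h the shares were 30.9 and 50.6%, a difference of -19.7 points (-25.4 to -13.5). With the cutoff applied to the shared distal sites too, 67 of 197 had Myc at 0 min (34%), and the difference was -11.3 points (-17.9 to -4.14). RNAPII at 0 min was at 25.3% of the shared distal sites and 30.3% of the fibroblast-only ones, and the interval of that difference held 0 (-10.2 to 0.882 points). Both families had no Myc and no RNAPII peak at any time, 0 of 39 (upper bound 8.97%) and 0 of 28 (12.1%).

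At the strongest promoters both factors were almost always present. Of the 100 strongest, 94 had Myc at 0 min and 99 at each later time, and all 100 had RNAPII at 0 min. Weaker promoter sites often had both too. In the 4 groups from the strongest to the weakest, Myc at 0 min was at 94.1, 90.1, 83.2 and 92.1%. RNAPII at 0 min was at 100, 93.1, 86.1 and 94.1%. Fibroblast-only promoter peaks that pass the B cell cutoff had 88.1% for Myc and 88.6% for RNAPII. At Rpl22, Myc folds were 40.2, 49.0, 53.4, 45.5, 61.7 and 49.7 in the lists from 0 min to 4 h, and RNAPII folds 41.0, 42.7, 43.2, 43.8, 37.3 and 35.4. At Hdgf, Myc folds were 74.6, 125, 119, 109, 125 and 110. Gne had Myc folds of 23.4, 57.8, 69.8, 53.0, 74.1 and 62.6, and Tmbim4 8.40, 15.6, 18.7, 18.1, 25.4 and 18.6. At each of these 4 genes the 0 min value was the lowest, but the whole Myc list also had its lowest median fold at 0 min (9.83, with 11.7 to 13.1 later), and folds from separately called lists do not measure a change. RNAPII at Hdgf had no narrow peak at 10 min although the broad list had one there.

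Promoter sites with Myc at the 5 later times and not at 0 min were led by Znhit3, Clcc1, Lactb and the site between Pomgnt1 and Rad54l. Znhit3, a zinc finger gene, had Miz1 folds of 242 in fibroblasts and 86.4 in B cells, and Myc folds of 9.09, 9.27, 8.42, 12.7 and 11.2 from 10 min to 4 h. Clcc1, an endoplasmic reticulum chloride channel gene, had Myc folds of 7.92 to 11.7 and RNAPII folds of 30.7 to 59.98 at all 6 times. The site between Pomgnt1 and the homologous recombination gene Rad54l had Myc folds of 6.76 to 10.3, and Lactb, a mitochondrial protein gene, 5.82 to 7.31. Every Myc fold in these 4 series lies below the median of its list.

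Of the 404 promoter sites, 23 had no Myc peak at any time. This count is not set beside that of other Miz1 promoter peaks, so it does not show a trait particular to shared sites. The strongest of the 23 was Fkbpl, with Miz1 folds of 101 in fibroblasts and 73.1 in B cells. It had a narrow RNAPII peak at 0 min alone (fold 12.1), but the broad lists had one at 4 of the 6 times. Ranbp9 (18.6 and 78.7), a scaffold protein gene, had RNAPII at all 6 times. Pik3r6, a regulatory subunit of phosphoinositide 3-kinase gamma (83.6 and 21.3), Bend5 (14.2 and 49.1) and Ifi27l1 (18.6 and 23.3) had no RNAPII peak at any time. The site nearest to Mir1192 (8.36 and 29.7), 799 bp from its TSS, had narrow RNAPII peaks at 10, 20 and 30 min. At 0 min 27 promoter sites had no narrow RNAPII peak, and 2 of these, Atad2 and Ctnnb1, had a broad one. At Atad2, a bromodomain ATPase gene, Myc was present at all 6 times (20.6 to 34.2). At Ctnnb1, which encodes beta-catenin, the broad lists had RNAPII at all 6 times and the narrow ones at none. The site at the ciliary dynein gene Dync2h1 (15.6 and 45.4) had narrow RNAPII at 4 h alone.

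Genes were counted here by TSSs of protein-coding transcripts only, which leaves out genes such as Vps13d, named above by another transcript. Shared promoter sites lay at 424 of 22232 protein-coding genes (1.91%). Of these, 418 had an RNAPII promoter peak at 0 min, which is 3.96% of the 10544 genes with such a peak and 98.6% of the genes with a shared site. Myc was at 404 of the 424 at 0 min (95.3%), beside 9929 of all 22232 protein-coding genes. That background includes 11688 genes without an RNAPII promoter peak at 0 min. It therefore does not set the Myc share apart from that of genes with RNAPII, which is not given here. Gene lists below were counted among genes with RNAPII and read against the 3.96%. They were drawn up with earlier results of these data known and were not tested.

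**Figure D5:**
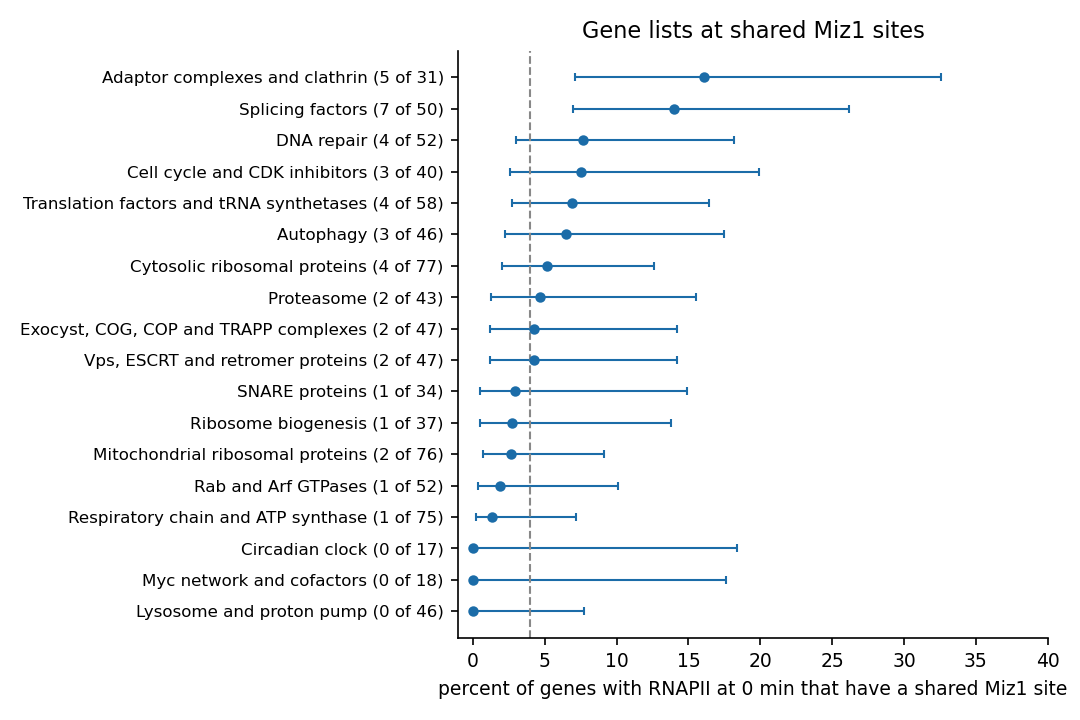
Percent of the RNAPII-bound genes of each list that have a shared Miz1 site at the promoter (x axis), with 95% Wilson intervals as bars. The dashed line is the 3.96% of all RNAPII-bound genes; the lists of adaptor complexes and splicing factors lie at 16.1 and 14%.

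The list of adaptor complexes and clathrin, the coats of transport vesicles, had 5 of 31 genes with a shared site (16.1%, 7.09 to 32.6%). They were the clathrin heavy chain gene Cltc (folds of 79.7 in fibroblasts and 96.8 in B cells), Ap4b1 (78.2 and 81.3), Ap1g1 (17.9 and 43.8), Ap4m1 (25.7 and 20.1, at a site it shares with the replication helicase gene Mcm7) and Eps15. Splicing factors had 7 of 50 (14%, 6.95 to 26.2%), led by Snrpb2, Snrnp70 (29.8 and 41.4) and Srsf1 (24.4 and 49.6) and with Hnrnph1, Srsf7, Hnrnpa2b1 and Hnrnpl. For both lists the interval lay above 3.96%. They have the highest shares among the lists of the figure, and the intervals make no allowance for the number of lists compared.

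Other lists had an interval that held the 3.96%. DNA repair had 4 of 52, namely Ercc2 (217 and 88.4), the BRCA2 partner Palb2 (246 and 83.1, at a site between it and Dctn5), Rad54l (192 and 81.9) and Parp1. Cell cycle genes had 3 of 40, Aurka (154 and 87.7), the retinoblastoma relative Rbl1 (23.4 and 29.5) and Mcm7. Translation factors had 4 of 58, Yars, Eif2b3 (139 and 62.3), Eif4a2 (23.8 and 40.5) and Eif4b. Cytosolic ribosomal proteins had 4 of 77, Rpl22, Rpl9 (140 and 36.2), Rps26 (54.4 and 39.2) and Rpl4, and mitochondrial ones 2 of 76, Mrps15 (157 and 86.5) and Mrps23 (99.8 and 54.5). The proteasome had 2 of 43, Psma1 and Psmd3 (269 and 89.1), ribosome biogenesis 1 of 37, Wdr12 (58.1 and 66.0), and the respiratory chain 1 of 75, Ndufa5 (82.6 and 48.7).

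The lists of membrane traffic beyond the coats also had intervals that held the background. SNARE proteins had 1 of 34, Vamp4. The Vps, ESCRT and retromer list had 2 of 47, the ESCRT-I gene Vps28 and Vps72 (224 and 89.3), which despite its name encodes a subunit of chromatin remodelling complexes. Exocyst, COG, COP and TRAPP genes had 2 of 47, Exoc2 (171 and 74.8) and Trappc9 (4.45 and 12.4), and Rab and Arf GTPases 1 of 52, Rab40c (7.45 and 7.89). Autophagy had 3 of 46, Ambra1, the kinase Ulk2 (11.2 and 35.8) and Gabarap (15.8 and 12.2). No gene was found among 46 of the lysosome (upper bound 7.71%), 17 of the circadian clock (18.4%) or 18 of the Myc network (17.6%). Several lists thus hold a few very strong sites without holding many.

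Of 13 genes with RNAPII that are known from other work as Miz1 targets, 5 had a shared site (38.5%, 17.7 to 64.5%), beside the 3.96% of all genes with RNAPII, and since that list was drawn up knowing these data it is not independent. Vamp4, a SNARE of the trans-Golgi network, had folds of 131 in fibroblasts and 105 in B cells. Ambra1, a regulator of autophagy, had 168 and 86.4, and Vps28 273 and 66.7. Exoc2, an exocyst subunit, and Rpl22 were the others. At Vamp4 the Myc folds were 16.9, 24.5, 27.1, 20.7, 33.4 and 23.2 and the RNAPII folds 25.4, 22.7, 25.4, 27.4, 21.5 and 30.8 from 0 min to 4 h. At Vps28 the Myc folds were 8.76, 10.7, 13.1, 10.9, 17 and 9.48. The cell cycle inhibitor genes were not among the shared sites: Cdkn1a had a fibroblast Miz1 peak with a fold of 4.47 and Cdkn2b one of 6.43, both without a B cell peak. Bcl2 and Zbtb17 itself had no Miz1 peak at the promoter in either list. Of the marker genes, the smooth muscle actin gene Acta2 alone had a shared site (7.14 in fibroblasts and 5.6 in B cells), 917 bp from its TSS.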

How the data were processed

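ChIP-seq peak lists for 14 of the 15 samples (the other is the input) were used as the authors deposited them, in mm9. Alignment with BWA 0.6.2-r126 and peak calling with MACS2 2.0.9 are named in the submitters' processing notes. Per the file headers, Miz1 and the broad RNAPII lists came from MACS 2.0.9, which kept up to 2 tags per position, and Myc and the narrow RNAPII lists from MACS 1.4.2, which kept 1, at a p cutoff of 1e-08. The deposited lists give fold enrichment (a ratio of the ChIP over its local control), pileup signal, tag counts, −log10 p-values and q-values, a score of −10 times log10 p, and an FDR in percent. Folds were used only to describe and rank peaks within a list.

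From these, overlaps of at least 1 bp, distances to the annotated TSSs, word counts and the sequence families (windows that share 10 words of 14 bases) were computed in Python 3.11.15 with pandas 2.3.3 and pysam 0.24.0, after the code had been tested on simulated data. Gene symbols were matched to the reference annotation, 901 by symbol and 14 by a RefSeq synonym, with 5 unmatched. Each group is 1 library, and no test was run. Named sites are the 12 strongest promoter sites, the 6 strongest distal sites, the 6 strongest promoter sites without Myc, the 4 strongest with Myc at later times alone, the 4 strongest promoters without RNAPII at 0 min, the 3 strongest of each list, and Vamp4, Ambra1, Vps28, Rpl22, Cdkn1a, Cdkn2b, Bcl2 and Zbtb17. The members and lists were chosen with earlier results of these data known. Alternatives varied the Miz1 cutoff and fold, the GA condition, the promoter width, the TSS set, the word window, the Myc and RNAPII peaks and the repeat families; their effect is given in the closing section.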

Additional observations from a re-analysis of the deposited data

How the results depend on the processing

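With 1 library per group, neither technical nor biological spread is known, and how depth bears on weak sites was not tested. No paired analysis was possible because no group has a second library. Of 73 alternative values of 7 results, 46 were counted as the same and 27 as moved. A share was the same if it stayed within the interval of the reported value. The number of sites has no interval and was judged by its ratio to 736. Peaks above the median fold of both lists left 440 sites. The promoter share (54.9%) was then 63.0%, and it was 51.2% with GA-rich peaks kept, 48.8 and 59.9% for promoters of 500 and 2500 bp, 51.1% for protein-coding TSSs and 60.4% without both large repeat families. ATCGAT (5.71%) was at 7.95% of sites above the median folds and at 4.21% within 100 bp windows. Sites passing the B cell p cutoff had Myc at 64.0% at 0 min and 66.7% at 4 h, and RNAPII at 64.3 and 63.2%. Sites above the median folds had Myc at 64.3 and 67.7% and RNAPII at 67.3 and 65.7%. Without both families, an alternative chosen after seeing the data, Myc was at 65.5 and 68.0% and RNAPII at 66.4 and 65.2%. Counting only Myc or RNAPII peaks above the median fold of their list gave 48.0 and 51.5% for Myc and 54.6 and 54.8% for RNAPII, and the broad RNAPII lists 54.9 and 54.8%. The cause of these shifts was not tested. Among the alternatives for promoter width and TSS set, word window, and Myc and RNAPII peak settings, the share of shared sites minus that of all fibroblast-only peaks kept its sign, with the smallest difference 3.84 points for ATCGAT. Against fibroblast-only peaks passing the B cell cutoff, the Myc difference was 2.37 points at 0 min, 0.293 at 4 h and -0.427 at 20 min, each with an interval that held 0, and with the cutoff on both sides it was 6.82, 5.14 and 4.50 points.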
